A study of Mus musculus with 24 samples.

Results

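Translation initiation and elongation factors are the proteins that bring a ribosome to the start of an mRNA and then move it along the message. Genes for them were taken from an array study of mouse tibialis anterior muscle by symbol: a probe row was a member when its annotated symbol began with Eif or Eef followed by a digit. The rule found 74 of the 26423 rows of the table, for 60 of the 17742 genes measured. The symbols Eif2c1 to Eif2c4 are old names of the Argonaute genes Ago1 to Ago4, which act in small-RNA silencing, so 4 of the 60 genes (6 rows) are not translation factors. The other 56 genes (68 rows) are described as the factors, and the Argonaute genes are given apart.

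Initiation starts when eIF2, loaded with GTP and the initiator tRNA, joins the small ribosomal subunit together with eIF1, eIF1A, eIF3 and eIF5. The cap-binding protein eIF4E, the scaffold eIF4G and the helicase eIF4A bring the mRNA, and the eIF4E binding proteins block this step until mTORC1 phosphorylates them. eIF2B recharges eIF2 with GTP and is inhibited when a stress kinase phosphorylates eIF2, eIF5B joins the large subunit, and eEF1 and eEF2 then deliver each aminoacyl-tRNA and translocate the ribosome. In skeletal muscle this machinery sets the rate of protein synthesis in response to feeding, loading and disuse.

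The knockout group had the genotype Myf6 cre/+; Hira flox/- (4 animals) and the control group Myf6 cre/+; Hira flox/+ (4 animals), all aged 6 months, of strain C57BL6/J;129S1/SvImJ. Hira encodes a chaperone that deposits histone H3.3, and the comparison asks how its loss in muscle fibres changes their transcripts. Cre is made from the Myf6 locus, which is active in fibres, and both groups carried it. Control fibres thus kept an intact copy of Hira, and the null copy of the knockout was present in all cells of the animal, not in fibres alone. RNA came from the whole muscle, so fewer cells of a type and less RNA per cell cannot be told apart. Each RNA went onto 3 arrays, and the mean of an animal is the unit of every test. Values per animal are listed in the order of animals 1 to 4 of a group.

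All 24 arrays had the same median intensity of 626.429, and the largest value of an array lay between 437047 and 761817. Pairs of arrays correlated over genes at 0.985 to 0.995 within an animal, at 0.976 to 0.993 between animals of a group, and at 0.968 to 0.987 between groups. The Hira probe gave a log2 intensity of 8.63, 9.31, 8.52 and 8.83 in knockout muscle, against 8.85, 9.11, 8.92 and 8.99 in control muscle. The groups overlapped, with means of 8.82 ± 0.35 in knockout and 8.97 ± 0.11 in control muscle (SD, n = 4 animals each; limma, adjusted p = 0.623). It is unknown here whether that probe lies in the floxed stretch, so it does not check the genotypes. Of the fibre markers, 10 were measured and 0 passed the test, although all 10 had differences below 0, with a median of -0.19 against -0.07 over all genes, and the groups did not overlap in Des. None was dim in both groups, where dim means a group mean at or below an intensity of 124.6, the highest 5th percentile of any array.

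Promoter windows of RefSeq (GRCm38.p6) were at hand for 44 of the 56 factors. The stretches from 80 bases before the start of transcription to 30 bases from it are shown for 4 genes because they hold the motifs discussed later: Eef2 and its kinase gene Eef2k, whose differences had opposite signs, and Eif2b4 and Eif4e2, which share a motif and also differed in opposite directions. Capitals mark a match: CACGTG (E-box), TGACGTCA (cAMP response element), CCGGAAGT (ETS-type site) or an oligopyrimidine run. Eef2 lies at chr10:81176551-81176660 (plus strand), Eef2k at chr7:120842751-120842860 (plus strand), Eif2b4 at chr5:31193110-31193219 (minus strand) and Eif4e2 at chr1:87213831-87213940 (plus strand).
Eef2: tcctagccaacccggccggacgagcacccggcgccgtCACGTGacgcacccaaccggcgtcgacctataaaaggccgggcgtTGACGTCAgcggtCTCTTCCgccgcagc
Eef2k: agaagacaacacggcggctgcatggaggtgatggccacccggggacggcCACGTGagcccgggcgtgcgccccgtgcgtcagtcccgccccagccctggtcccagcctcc
Eif2b4: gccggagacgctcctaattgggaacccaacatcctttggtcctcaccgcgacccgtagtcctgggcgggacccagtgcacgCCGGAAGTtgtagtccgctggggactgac
Eif4e2: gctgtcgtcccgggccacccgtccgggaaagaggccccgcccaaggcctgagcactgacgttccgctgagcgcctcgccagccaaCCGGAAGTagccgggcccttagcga

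In knockout muscle, transcripts of the eIF4E binding protein gene Eif4ebp3, the elongation factor gene Eef2 and the eIF2B subunit genes Eif2b1 and Eif2b4 were higher, and those of the cap-binding homologue Eif4e2 and of Eif5b were lower. These 6 of 56 factors (10.7%) passed the test, limma with an adjusted p under 0.05 over all 17742 genes, where 9.28% of all genes did. The 4 rises are 7.14% of the factors, against 4.28% of all genes, and the 2 falls 3.57%, against 5.01%. These shares lie near those of all genes and are no result about the factors as a set. Under cyclic loess scaling the split was 7 higher and 2 lower among the factors. Over all genes it was then 1309 higher and 1154 lower, in place of 759 and 888.

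Most differences were small. The median difference, knockout minus control, was 0.05 on the log2 scale over the factors and -0.07 over all genes, and 33 of 56 factors (58.9%) lay above 0, against 40.3% of all genes. In 35 factors (62.5%) the difference was smaller than 0.2 in size, against 52.2% of all genes. The middle 90% of factors lay between -0.33 and 0.44, and that of all genes between -0.52 and 0.52. Differences of 2-fold or more that passed the test numbered 225 rises and 86 falls over all genes, and among the factors Eif4ebp3 alone reached that size. An unadjusted p under 0.05 was found for 12 factors (21.4%) and for 24% of all genes.

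**Figure D1:**
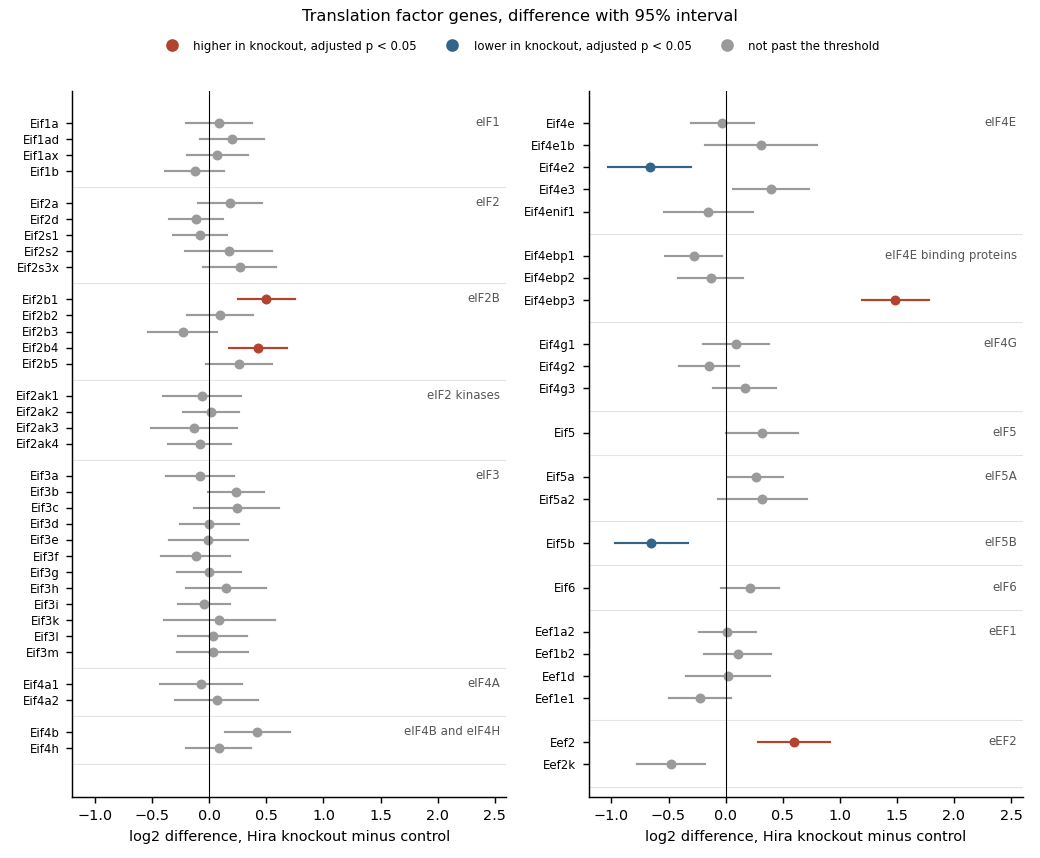
Log2 difference (knockout minus control, horizontal axis) of each of the 56 factor genes by group, with its 95% interval from limma on 4 animals per group. Eif4ebp3 stands far to the right at 1.49, while the other 5 called genes lie between -0.67 and 0.60 and all 12 eIF3 genes lie close to 0.

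**Figure D2:**
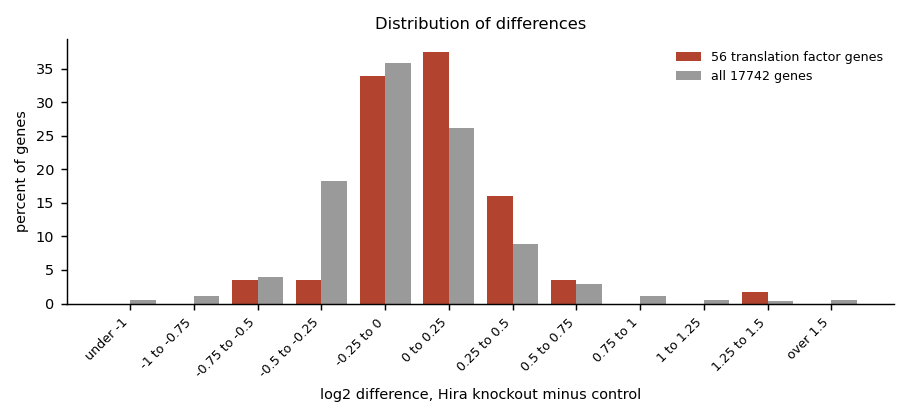
Percent of the 56 factor genes (red) and of all 17742 genes (grey) in each range of the log2 difference, knockout minus control. The factors lie mostly within 0.25 of 0 and reach less far into the falls than all genes do.

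The groups of animals did not overlap in 10 factors, where 17.5% of all genes had no overlap. All knockout animals lay above all control animals in 6 factors (7.24% of all genes), namely Eif4ebp3, Eef2, Eif2b1, Eif2b4, Eif4b and Eif5a. All knockout animals lay below all control animals in the other 4 (10.2% of all genes), namely Eif4e2, Eif5b, Eef2k and Eif4ebp1.

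The eIF4E binding proteins compete with eIF4G for eIF4E, and 1 of the 3 genes of the family rose, where 4.28% of all genes did. Eif4ebp3 had an intensity of 10315, 10898, 10506 and 10026 in knockout muscle, against 4024, 4555, 3283 and 3187 in control muscle. The knockout animals were nearly alike and all stood far above the controls. The difference was 1.49 ± 0.13 on the log2 scale (SE; 95% interval 1.19 to 1.78), or 2.80-fold (limma, adjusted p = 0.000103). It ranked 41st by p among 17742 genes and 88th by size among the 759 rises, and it passed the test whichever of the 8 animals was left out. Within the animals numbered from 64 alone the difference was 1.31 (adjusted p = 0.0564). Ankhd1, the gene just before Eif4ebp3 on its chromosome, is known in human cells to be joined to it in a readthrough transcript, and its own row was 0.56 ± 0.14 higher in knockout muscle (adjusted p = 0.0356). The probe's target within the locus is unknown here, so such transcripts cannot be told apart from those of Eif4ebp3 alone.

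Eif4ebp1, the member studied most as a target of mTORC1, had 10867, 11467, 11173 and 10639 in knockout muscle, against 11685, 14983, 13176 and 13871 in control muscle. All knockout animals lay below all controls, by a smaller gap than in Eif4ebp3, and the difference of -0.28 ± 0.11 did not pass the test (limma, adjusted p = 0.16). Eif4ebp2 had 2551, 1864, 2635 and 2394 in knockout muscle, against 2571, 2509, 2563 and 2620 in control muscle, a difference of -0.13 ± 0.13 (adjusted p = 0.56). The groups overlapped, with knockout animal 2 the lowest of all. A second row of Eif4ebp2 gave -0.57 ± 0.17 (adjusted over all rows, p = 0.0661).

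**Figure D3:**
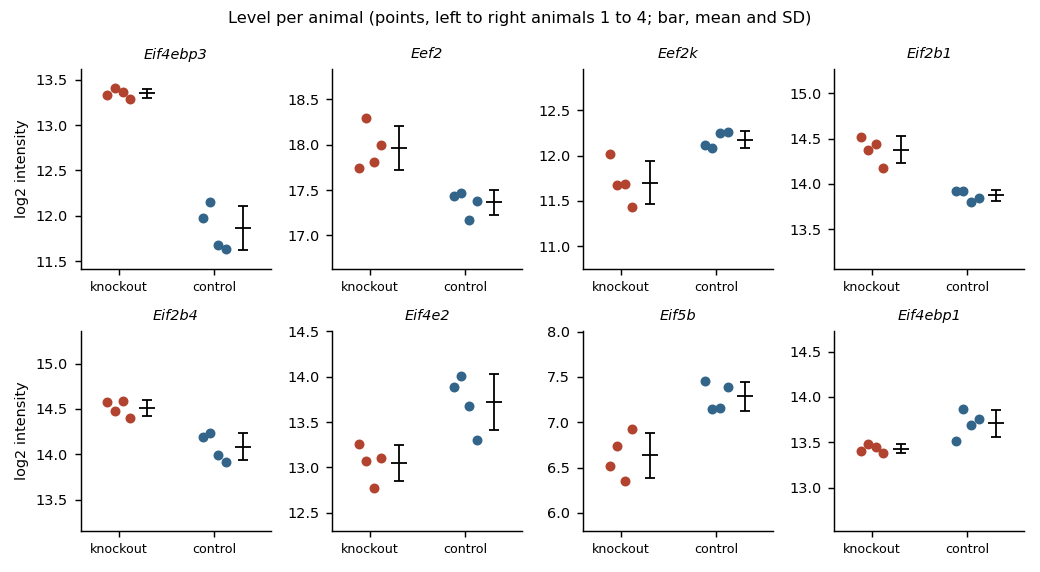
Log2 intensity of 8 factor genes in each animal (points, knockout left and control right, animals 1 to 4 from left to right within a group; black mark and bar, mean and SD, n = 4). The groups are separated in each panel, most widely in Eif4ebp3. The controls are the less tight group in Eif4ebp3, Eif4ebp1, Eif4e2 and Eif2b4, and the knockout animals in Eef2, Eef2k, Eif2b1 and Eif5b.

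Among the cap-binding genes, the homologue Eif4e2 was lower, and Eif4e itself did not pass the test. Eif4e had 9676, 9067, 9981 and 11455 in knockout muscle, against 11866, 9781, 9055 and 10305 in control muscle, with overlapping groups and a difference of -0.03 (-0.30 to 0.25, 95% interval; adjusted p by limma = 0.917). Eif4e2 encodes a cap-binding protein that represses translation of the mRNAs it holds and does not recruit eIF4G well. Its intensity was 9759, 8633, 7012 and 8789 in knockout muscle, against 15099, 16488, 13090 and 10106 in control muscle. The groups did not overlap, although control animal 4 lay close to knockout animal 1. The difference was -0.67 ± 0.17, or 1.59-fold lower (adjusted p = 0.0304). A second, dimmer row of Eif4e2 gave 0.13 ± 0.14, and the mean over both rows gave -0.27 (adjusted p = 0.199). The call was also lost with array weights (adjusted p = 0.0503) and when control animal 1, 2 or 3 or knockout animal 2, 3 or 4 was left out (adjusted p = 0.0567 to 0.0908).

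Eif4e3, the third cap-binding relative, averaged 16084 in knockout and 12213 in control muscle, with a difference of 0.40 ± 0.15 that did not pass the test (limma, adjusted p = 0.138). Eif4e1b, a form known from oocytes, was dim in both groups. Eif4enif1, which carries eIF4E into the nucleus, gave -0.15 (adjusted p = 0.635).

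The scaffold and helicase genes did not pass the test. Eif4g1, the main eIF4G, averaged 34675 in knockout and 32626 in control muscle (difference 0.09 ± 0.13; limma, adjusted p = 0.725), and Eif4g2 and Eif4g3 gave -0.15 and 0.17. The helicase gene Eif4a1 gave -0.07 and its relative Eif4a2 gave 0.06. Eif4b, which stimulates that helicase, had 16605, 21253, 17296 and 18680 in knockout muscle, against 15249, 15261, 12654 and 12035 in control muscle. The groups did not overlap, and the difference of 0.42 ± 0.13 lay near the threshold (adjusted p = 0.0692). It passed under 9 of 24 other settings, and a second row gave 0.22 ± 0.14. Eif4h, a smaller protein of like activity, gave 0.08 (adjusted p = 0.737).

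eIF2B, the exchange factor of eIF2, has a catalytic pair of subunits, encoded by Eif2b3 and Eif2b5, and a regulatory set that senses phosphorylated eIF2, encoded by Eif2b1, Eif2b2 and Eif2b4. Of these 5 genes, Eif2b1 and Eif2b4 rose and 3 did not pass the test, where 4.28% of all genes rose. Eif2b1 had 23476, 21209, 22136 and 18436 in knockout muscle, against 15529, 15572, 14300 and 14688 in control muscle. The groups stood well apart, and the difference was 0.50 ± 0.11, or 1.41-fold (limma, adjusted p = 0.0199). Eif2b4 had 24331, 22747, 24638 and 21630 in knockout muscle, against 18646, 19260, 16341 and 15447 in control muscle. Here too every knockout animal lay above every control, by 0.43 ± 0.12, or 1.34-fold (adjusted p = 0.0441).

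Both calls were near the threshold. That of Eif2b1 was lost without control animal 3, control animal 4, knockout animal 1 or knockout animal 3 (limma, adjusted p = 0.0527 to 0.0658). That of Eif2b4 held without control animal 2 and was lost when any other animal was left out (adjusted p = 0.0622 to 0.13) or when every row was tested as its own feature (0.0586). The third regulatory gene, Eif2b2, averaged 297.7 in knockout and 279.3 in control muscle (difference 0.09 ± 0.13, adjusted p = 0.708). Of the catalytic pair, Eif2b5 gave 0.26 ± 0.13 (adjusted p = 0.247) and Eif2b3 gave -0.23 ± 0.14 (adjusted p = 0.326). Intensities of these last 3 genes overlapped between the groups.

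None of the genes grouped with eIF2 by symbol and none of those for its kinases passed the test (0 of 5 and 0 of 4). The eIF2 group held Eif2a and Eif2d besides the subunit genes. Of the eIF2 group, Eif2s3x, which encodes the GTP-binding subunit, gave the largest difference, 0.27 ± 0.15 (limma, adjusted p = 0.293), with 19617, 18192, 21035 and 21943 in knockout muscle, against 19613, 19679, 13634 and 15014 in control muscle. Control animals 1 and 2 lay within the knockout range and control animals 3 and 4 below it. Eif2s1, the subunit whose phosphorylation inhibits eIF2B, gave -0.08 and Eif2s2 gave 0.17. Eif2a, which can bring the initiator tRNA independently of GTP, gave 0.18, and Eif2d, another non-canonical factor, gave -0.11. The 4 kinase genes lay between -0.14 (Eif2ak3, the kinase PERK of the endoplasmic reticulum) and 0.02 (Eif2ak2, the kinase PKR activated by double-stranded RNA), with Eif2ak1, the heme-regulated kinase, at -0.06 and Eif2ak4, the amino acid sensor GCN2, at -0.09.

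All 12 measured genes of eIF3, the largest initiation factor and the platform on which the others assemble, lay between -0.12 and 0.24, and 0 of 12 passed the test. Eif3c, a core subunit, had the largest difference, with 64769, 84296, 68631 and 45908 in knockout muscle, against 52252, 54466, 61158 and 51003 in control muscle (0.24 ± 0.17; limma, adjusted p = 0.421). The knockout animals covered a range wider than that of the controls and enclosed it. Eif3f, a subunit known in muscle as a partner of mTORC1 and a target of the ubiquitin ligase atrogin-1, averaged 89074 in knockout and 96837 in control muscle (-0.12 ± 0.14, adjusted p = 0.627). The other differences were -0.08 for Eif3a, 0.23 for Eif3b, -0.0006 for Eif3d, -0.0089 for Eif3e and -0.003 for Eif3g. Eif3h gave 0.15, Eif3i -0.05, Eif3k 0.09, Eif3l 0.03 and Eif3m 0.03. The 95% intervals of Eif3b, Eif3c, Eif3h and Eif3k reached above 0.4 on the log2 scale and that of Eif3f below -0.4, so differences of that size lie within the error of these 5 genes.

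The genes whose symbols begin with Eif1 did not pass the test (0 of 4). Those of eIF1 and eIF1A, which act in start-codon selection, gave -0.13 (Eif1b), 0.08 (Eif1a) and 0.07 (Eif1ax). Eif1ad, grouped with them by its symbol alone, gave 0.20. Eif5, which encodes the GTPase-activating protein of eIF2, had 939.7, 1358, 999.6 and 1000.3 in knockout muscle, against 982.1, 871.1, 764.6 and 800.2 in control muscle. Knockout animal 2 stood high and knockout animal 1 lay below control animal 1, and the difference was 0.32 ± 0.14 (limma, adjusted p = 0.2). Eif6, which keeps free large subunits from joining, gave 0.21 ± 0.11 (adjusted p = 0.278).

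Eif5b, the GTPase that joins the ribosomal subunits, was lower in knockout muscle, on a row near background. It had 91.9, 106.8, 81.6 and 121.4 in knockout muscle, against 175.5, 141.5, 143 and 167.1 in control muscle. The groups did not overlap, and the difference was -0.65 ± 0.15 (limma, adjusted p = 0.0185). Because every knockout animal lay below the level of 124.6 that counts as dim, the fold is only a bound, at least 1.25-fold lower. The call was lost without control animal 1, knockout animal 1 or knockout animal 3 (adjusted p = 0.0508 to 0.0605). Rev1, a DNA polymerase gene that overlaps Eif5b in the RefSeq gene table, was itself lower, with a difference of -0.51 ± 0.13 (adjusted p = 0.0371), and the strand and target of the Eif5b probe are unknown here.

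In the elongation factors, Eef2 rose, and the gene for its inhibitory kinase had a difference of opposite sign that did not pass the test. Eef2, which moves the ribosome along by a codon, had 220218, 321657, 230023 and 261702 in knockout muscle, against 177699, 181331, 147270 and 170510 in control muscle. Every knockout animal was above every control, knockout animal 2 by the most. The difference was 0.60 ± 0.14, or 1.52-fold (limma, adjusted p = 0.0237), and it no longer passed without control animal 1, 3 or 4 or without knockout animal 4 (adjusted p = 0.0513 to 0.0641). The level is high for these arrays, whose largest values lay between 437047 and 761817, where the response is not known to be linear.

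Eef2k, whose product phosphorylates eEF2 and so halts it, had 4136, 3259, 3290 and 2764 in knockout muscle, against 4435, 4330, 4879 and 4901 in control muscle. All knockout animals lay below all controls, and knockout animal 1 came closest to them. The difference of -0.48 ± 0.14 missed the threshold narrowly (limma, adjusted p = 0.0509), and it passed under 10 of 24 other settings. Over those settings the difference ranged from -0.70 to -0.26, with a highest adjusted p of 0.488 (limma). With 1 animal left out it ranged from -0.58, without knockout animal 1 (adjusted p = 0.0243), to -0.39.

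The eEF1 genes did not pass the test (0 of 4). Eef1a2, the eEF1A form of adult muscle and neurons, had 148479, 138039, 132391 and 156004 in knockout muscle, against 153187, 151181, 130179 and 135457 in control muscle. The groups covered the same range, and the difference was 0.013 (95% interval -0.24 to 0.26; limma, adjusted p = 0.959), so a change of the size seen in Eef2 lies outside its interval. Eef1b2 and Eef1d, of the exchange factor of eEF1A, gave 0.10 and 0.02, and Eef1e1, a part of the multi-synthetase complex, gave -0.22. The widespread form Eef1a1 was not analysed here. Eif5a, which frees ribosomes stalled at runs of proline and carries the amino acid hypusine, averaged 137612 in knockout and 114682 in control muscle, without overlap between the groups. Its 3 rows gave 0.26, 0.27 and 0.27, and none passed the test (adjusted p = 0.165 for the gene). Its relative Eif5a2 gave 0.32 ± 0.18 (adjusted p = 0.297).

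**Figure D4:**
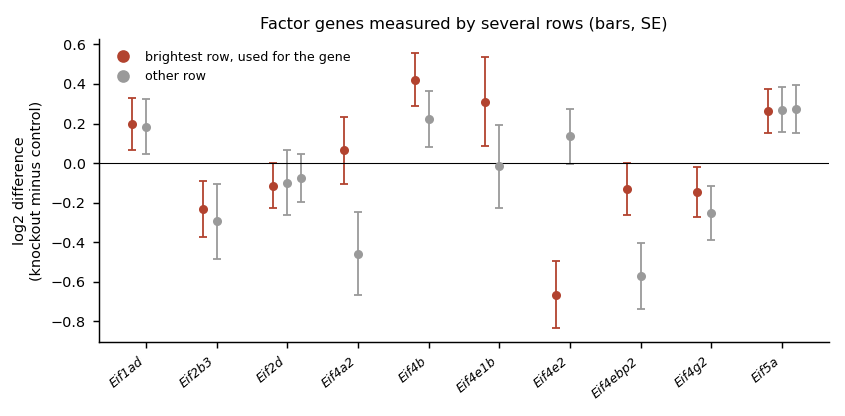
Log2 difference (knockout minus control) of each row of the 10 factor genes with several rows, with its SE from limma on 4 animals per group. The rows of Eif5a, Eif1ad and Eif2d lie together, while the 2 rows of Eif4e2 lie on opposite sides of 0 and those of Eif4a2 and Eif4ebp2 lie apart.

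Rows of 1 gene did not always give the same value. Of the 10 factors with several rows, those of Eif5a, Eif1ad, Eif2d and Eif4g2 had the same sign and similar sizes. Eif4e2 is the only called factor with a second row, and that row had the opposite sign. The second rows of Eif4a2 (-0.46 ± 0.21) and of Eif2b3 (-0.29 ± 0.19) were dim in both groups.

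The factors also differed among the control animals. The animal numbers in the labels begin with 64 (animals 1 and 2 of each group) or 69 (animals 3 and 4), and the labels do not say what the number stands for. In 34 of 56 factors (60.7%) both control animals numbered from 69 lay below both numbered from 64, where 31.8% of all genes did so. The opposite order held in 8 factors, where it held in 31.8% of all genes. The median difference between these control animals, 69 minus 64, was -0.20 over the factors and 0.01 over all genes. In knockout animals the same order held in 9 factors (16.1%), against 17.8% of all genes, and the opposite in 5, against 14.8% of all genes. The median was -0.03 over the factors and -0.02 over all genes.

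Set against the control mean, the median deviation of the factors was 0.029, 0.19, 0.0088 and 0.030 in knockout animals 1 to 4, against 0.096, 0.094, -0.12 and -0.079 in control animals 1 to 4. Knockout animal 2 was thus the highest of all, and the other 3 knockout animals lay between the control pairs. The median difference between the groups was 0.12 over the factors in the animals numbered from 69 alone and -0.02 in those from 64 alone. All 6 called genes kept their sign in each series, and Eif4ebp3 alone passed the test in the series 69 (limma), with 0 of 6 passing in the series 64, where 2 animals were set against 2. With the series as a block, all 6 passed. The part of the animal numbers in these results was not tested.

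**Figure D5:**
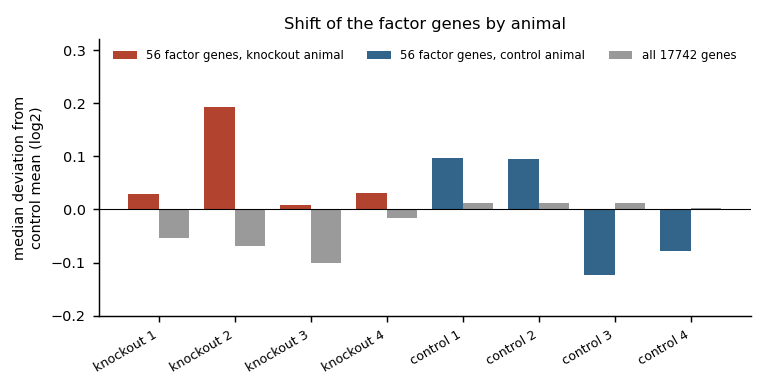
Median deviation from the control mean (log2 scale) over the 56 factors (coloured) and over all 17742 genes (grey) in each animal, knockout animals left and control animals right. Control animals 1 and 2 stand above 0 and control animals 3 and 4 below it in the factors, while the grey bars of the controls stay near 0, and knockout animal 2 has the highest coloured bar.

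Other genes of translation were counted from 6 lists chosen for their role. Of 122 measured genes, 5 rose and 7 fell (9.84%, against 9.28% of all genes), and the median difference was -0.07. The calls of Akt1 and Nat1 held whichever of the 8 animals was left out. Nat1 is counted among the 7 falls although in the mouse it is not a translation gene, as described below. Each of the other 10 was lost for at least 3 choices of the animal left out, those of Impact and Denr for all 8, with an adjusted p of at most 0.116 (limma). Of 24 genes of mTORC1 and eIF4E control, the kinase gene Akt1 rose 1.98-fold (0.99 ± 0.12; limma, adjusted p = 0.000658) and Mknk1, the kinase that phosphorylates eIF4E, fell by 0.48 on the log2 scale (adjusted p = 0.0241). Mtor itself had a difference of -0.0046 and Rps6kb1, the S6 kinase gene, -0.02.

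Of 25 genes of the integrated stress response, the programme that follows inhibition of eIF2B, 3 rose and 1 fell. Over all genes, 4.28% rose and 5.01% fell. The transcription factor genes Atf5 and Ddit3 rose by 0.45 ± 0.12 and 0.51 ± 0.14 and the mitochondrial folate enzyme gene Mthfd2 by 0.69 ± 0.18 (limma, adjusted p = 0.0371, 0.0428 and 0.0375). Impact, whose product restrains the kinase GCN2, fell by 0.40 on the log2 scale (adjusted p = 0.0455). The call of Impact was lost in the mean over its 2 rows (adjusted p = 0.291) and without the 2 arrays with most values at or below 0 (0.053), and that of Mthfd2 with the median of hybridisations (0.0513) and with array weights (0.0745). Atf4, which heads the programme mainly through its translation, gave -0.27 (adjusted p = 0.208), and its target Asns, which makes asparagine, gave 0.03 (adjusted p = 0.95). The calls of Atf5 and Ddit3 each held for 1 of the 8 choices of the animal left out. The largest differences of the list were below 0 and did not pass the test, -0.96 for Atf3 and -0.96 for Chac1 (limma, adjusted p = 0.264 and 0.0745). The list as a whole had a median of 0.03, with 12 of 25 genes below 0.

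The lists below are read against the shares of all genes, of which 4.28% rose and 5.01% fell. Of 18 genes of eIF5A and eEF2 modification and selenocysteine decoding, 1 rose and 1 fell. Dohh, which completes the hypusine of eIF5A, rose by 0.41 ± 0.10 (limma, adjusted p = 0.0345). N6amt1, which methylates the release factor eRF1, fell by 0.51 (adjusted p = 0.0287). The mean over the 2 rows of N6amt1 gave -0.12 (adjusted p = 0.762). Dhps, which starts the hypusine, gave -0.37 (adjusted p = 0.0738). Of 23 genes listed for termination, recycling, poly(A) and start-site factors, 3 fell. The differences were -0.46 for the re-initiation factor gene Denr (limma, adjusted p = 0.0441), -0.51 for the small-subunit assembly gene Ltv1 (adjusted p = 0.0393) and -0.995 for Nat1 (adjusted p = 0.00136). The mean over the 2 rows of Denr gave -0.14 (adjusted p = 0.446), and the call of Ltv1 was lost with the median of hybridisations (adjusted p = 0.0559). In the mouse Nat1 encodes an arylamine N-acetyltransferase. It entered the list because its symbol is also an old name of an eIF4G relative. Ltv1 acts in ribosome assembly, so of these falls only Denr is of the kind the list names. Of 20 aminoacyl-tRNA synthetase genes, Mars1, for methionine, fell by 0.58 (adjusted p = 0.0231), and of 12 mitochondrial translation factor genes 0 passed, Mtif3 coming closest at -0.46 (adjusted p = 0.054).

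Markers of some other cell types differed between the groups, and the part of the markers in these results was not tested. Over all genes, 5.01% fell and 4.28% rose. Of smooth muscle and pericyte markers 3 of 6 fell and 0 rose, with a summed intensity of 29449 to 33933 in knockout animals and 38645 to 47751 in control animals. Of endothelial markers 2 of 8 fell (33114 to 49697 in knockout and 47175 to 69079 in control animals), of Schwann cell markers 1 of 4 (17873 to 23154 in knockout and 22867 to 32128 in control animals) and of red blood cell genes 1 of 2 (1189 to 2586 in knockout and 2814 to 3916 in control animals). All measured markers of these 4 lists had differences below 0, where 40.3% of all genes lay above 0. Of 7 macrophage and leukocyte markers 1 fell, Cd163 (-0.93), while the list median was 0.48. Ptprc (0.52, without overlap of the groups), Itgam (0.60), Cd68 (1.01) and Adgre1 (0.48) had differences above 0 that did not pass the test. This list summed to 8958 to 21462 in knockout and 8216 to 13864 in control animals, and Cd68 alone had 10903 in knockout animal 3. Of 7 fibroblast markers 0 passed (136572 to 256906 in knockout and 154786 to 233220 in control animals), and Col1a1 was dim in both groups. The 10 fibre markers summed to 2487609 to 3577171 in knockout and 3024215 to 3843411 in control animals. No list was absent from either group.

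The promoter windows, which run from 250 bases before the start to 50 after it, were searched for 5 features. An E-box (CACGTG, either strand) was found in 10 of 44 factors (22.7%) and in 7.24% of the windows of all 27025 genes that have one. Those windows include genes not measured here, so the shares are not a like comparison. The ETS-type and cAMP motifs were picked after the sequences shown above were seen. Their presence in Eif2b4, Eif4e2 and Eef2 is therefore no result. An ETS-type site (CCGGAAGT, either strand) was found in 8 factors (18.2%), Eif2b4 and Eif4e2 among them, and in 3.99% of all windows. The cAMP response element (TGACGTCA, either strand) was found in 1 factor, Eef2, and in 1.85% of all windows. TGATGCAA, a core bound by stress-response factors, was found in 0 factors and in 0.929% of all windows.

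An oligopyrimidine run that begins at the first base of the mRNA marks mRNAs whose translation follows mTORC1. The search here also took runs that begin elsewhere near the start, so a match does not identify such an mRNA. A run of C and at least 5 more pyrimidines, on the sense strand and beginning between 10 bases before the start and 20 after it, was found in 12 of 44 factors (27.3%) and in 23.7% of all windows, Eef2 being the only called factor that had it. The median difference was 0.09 over the factors with the run and 0.02 over those without it. It was 0.01 with an E-box and 0.05 without, and 0.06 with an ETS-type site and 0.05 without. In the sequences shown above, Eef2 holds an E-box, a cAMP response element and a pyrimidine run, and Eef2k an E-box. The ETS-type site lies just after the start in both Eif2b4 and Eif4e2, and these transcripts differed in opposite directions. The ETS-type and cAMP motifs were chosen after these sequences were seen, and a match is a run of letters in a window, not a site shown to be bound.

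The 4 Argonaute genes that the symbol rule brought in did not pass the test (0 of 4). They lay between -0.29 (Ago3; limma, adjusted p = 0.229) and 0.07 (Ago1, adjusted p = 0.815), with Ago2 at -0.0053, Ago4 at -0.12 and a median of -0.06.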

How the data were processed

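The authors' deposited values were linear array intensities, 1 per row and array, scaled to a common median. Scanner, background correction and scaling method: not given in the sources used here. The labels name Cy3 in one field and Cy5 in another. The share of values at or below 0 was 0% to 5.37% by array. From the deposited intensities, log2 values were computed after a floor at the 5th percentile of all values, 38.77, which 1 of 1344 factor values lay under. The 3 hybridisations of an animal were averaged. The old probe annotation gave a symbol for 20377 rows and none for 6046. A RefSeq gene table (GRCm38.p6) held 18213 of these as current symbols and 2126 as a synonym of 1 gene, and 38 matched neither. Where a gene had several rows, that of highest mean log2 intensity was used. The mean of linear intensities was tried first and chooses another row for 14 genes and 0 factors, with 1653 in place of 1647 calls over all genes. The change was made after both counts were known.

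Knockout was compared with control on 8 animal means by lmFit and eBayes of limma 3.58.1 (R 4.3.3), with Benjamini-Hochberg adjustment over 17742 genes and a threshold of 0.05. The test rests on these 8 animal means, and arrays have no counting depth. The SD of a factor had a median of 0.16 (log2) over repeat hybridisations and 0.17 over animals of a group. The first is of single arrays and the second of animal means, which still hold part of the spread between hybridisations. The comparison therefore cannot tell whether animals or hybridisations limit the precision. A gene was dim in a group whose mean was at or below 124.6, and its fold is then a bound against that level. The fit was tested on simulated data. Hybridisation numbers did not pair animals: deviations of arrays of different animals with the same number correlated at a median of 0.042 (-0.632 to 0.749), and those with other numbers at -0.017.

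Members, pathway lists and marker lists were chosen with earlier results of these data known. The genes named are all called factors, the brightest and the most different factor of each group, the eIF4E binding proteins, Eef1a2, Hira, and up to 4 called genes per pathway list (or the 1 of smallest p). All other factors are named with their difference, and Eef2k, Eif4e, Eif2b2, Eif2b3 and Eif2b5 with more detail, after their values were seen. The same holds for Mtor, Rps6kb1, Atf4, Asns, Atf3, Chac1, Dhps and neighbouring genes. Alternatives were other scalings, floors, filters, row choices, fits over all arrays, blocks, weights and left-out animals.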

Additional observations from a re-analysis of the deposited data

Results flagged for a closer look

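In 98 groups of 4 animals looked at, for the genes named by rule, 2 held an animal far from the other 3, and chance alone marks about 1 group in 20. Eif5 had a log2 intensity of 10.41 in knockout animal 2, where the other knockout animals lay between 9.88 and 9.97. Ago1 had 10.10 in control animal 3, where the other control animals lay between 10.57 and 10.61. Neither gene passed the test between the groups.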

How the results depend on the processing

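The calls of single factors other than Eif4ebp3 lie near the threshold, and the number called changed with the setting. In place of 6 factors (4 higher, 2 lower), the test called 10 (7 higher) with all arrays and the animal as a random block, 10 (7 higher) with array weights, 7 higher under cyclic loess, 0 in the animals numbered from 64 alone and 1 in those from 69 alone, where it was a rise. The counts over all genes were 2569 under quantile scaling, 2463 under cyclic loess, 3149 with all arrays and 3609 with array weights. They were 62 and 508 in the animals numbered from 64 and 69. For the 12 pathway genes they were 24 under quantile scaling and under cyclic loess, 30 with all arrays, 27 with array weights, and 0 and 1 in the animals from 64 and 69. The hybridisation number as a replicate block over all arrays gave 2978 calls over all genes, 10 factors (7 higher) and 27 pathway genes; the numbers do not pair animals. Leaving out an animal gave 945 to 1693 calls over all genes, 2 to 5 factors (1 to 4 higher, 0 to 2 lower) and 3 to 7 pathway genes. Other floors, filters and row choices, the median of hybridisations, every row as a feature, the number series as a block and an intensity trend with robust variances kept the totals within 1.5 times. The falls among pathway genes, 7 as reported, were 13 with an added constant, 12 with the series as a block, 11 with the trend and 4 in the mean over rows.

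Scaling moved the median of all genes, from -0.066 as deposited to -0.014 under quantile scaling and -0.0026 under cyclic loess, and that of the factors to 0.092 and 0.11. No called factor changed sign under any setting that gave 1 value per gene. With every row as its own feature, the second row of Eif4e2 gave 0.13, opposite to its brighter row. Some factors that did not pass the test, and Ago1, changed sign. Without control or knockout animals in turn, Eef1a2 ranged from -0.029 to 0.052, Eif4e from -0.0926 to 0.0451, Ago1 from -0.049 to 0.19, Eif2ak1 from -0.14 to 0.092 and Eif4a1 from -0.18 to 0.071. Cyclic loess gave 0.033 for Eif4e, 0.011 for Eif2ak1 and 0.012 for Eif4a1, quantile scaling 0.015 for Eif4e, and array weights 0.0057 for Eif4e and 0.060 for Eif2ak1. The animals from 64 alone gave -0.088 for Eef1a2, -0.015 for Eif2a, -0.057 for Eif2s3x, 0.13 for Eif3f, 0.17 for Eif4a1, -0.13 for Eif4h and -0.095 for Eif4g1. Those from 69 alone gave 0.15 for Eif4e, 0.21 for Eif2ak1 and 0.13 for Eif2ak3. The cause was not tested. The 4 animals per group and, for Eif5b, a signal near background limit what these arrays can show.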

Other observations

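Genes beside the factors were measured too. Neighbours were protein-coding genes that overlap a factor or lie within 10 kb of it in the RefSeq gene table, a distance chosen after Ankhd1 was seen to lie just outside a smaller one, and 63 of them had a row. Of the 63, 11 passed the test (17.5%, against 9.28% of all genes), namely 6 of 14 beside called factors and 5 of 49 (10.2%) beside factors that were not called. Of the neighbours that passed the test, the 2 with the largest differences lay beside factors that were not called. These were Tmem234 beside Eif3i (1.204 ± 0.14, adjusted p by limma = 0.000367) and Fam131a beside Eif4g1 (0.90 ± 0.11, adjusted p = 0.000608). Eif3i itself gave -0.05 and Eif4g1 0.09. Cd68 beside Eif4a1 (1.01) and Lat2 beside Eif4h (0.91) had larger differences than Fam131a and did not pass. Knockout animal 3 stood far above the other knockout animals in both. Cd68 had 10903 in it against 946 to 2035 in the others, and Lat2 3538 against 748 to 1028. On the stretch that holds Eif4ebp3, both Ankhd1 and Apbb3, an adaptor of amyloid precursor protein, were higher in knockout muscle, by 0.56 ± 0.14 and 0.72 ± 0.15 on the log2 scale (limma, adjusted p = 0.0356 and 0.0118), and Sra1 gave 0.07 (adjusted p = 0.77). Beside Eif2b4, the phosphatase gene Ppm1g was 0.64 ± 0.12 higher and Zfp513, a zinc finger gene, 0.40 ± 0.11 higher (adjusted p = 0.0085 and 0.0418), while Snx17 and Gtf3c2 gave 0.09 and 0.12 (adjusted p = 0.671 and 0.615). Beside Eif2b1, the transcription factor subunit gene Gtf2h3 gave 0.51 ± 0.25 and the helicase gene Ddx55 -0.05 (adjusted p = 0.246 and 0.88).

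Next to Eif4e2 lies Chrng, the fetal subunit of the muscle acetylcholine receptor, which was lower, with a difference of -0.67 ± 0.15 (limma, adjusted p = 0.0213), beside -0.67 for Eif4e2. Next to Eef2, the kinase gene Dapk3 gave 0.37 ± 0.11 (adjusted p = 0.0618) and Pias4 0.02 (adjusted p = 0.951). Txndc9, beside Eif5b, gave -0.04 (adjusted p = 0.908).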
